A study of Rattus norvegicus with 6 samples.

Results

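Genes that mark marrow stromal cells by their surface proteins or by a niche signal were followed in BMSCs, stromal cells of rat bone marrow that adhere to plastic and can form bone, fat and cartilage. The set holds 7 of the 32883 gene IDs in the count table: Thy1 (ENSRNOG00000006604), Cd44 (ENSRNOG00000006094), Nt5e (ENSRNOG00000011071), Itgb1 (ENSRNOG00000010966), Pdgfrb (ENSRNOG00000018461), Cxcl12 (ENSRNOG00000013589) and Ptprc (ENSRNOG00000000655). They were selected by ID, and their symbols came with the selection. The deposited table carries no symbols, and the reference list of 47357 rat RefSeq genes gives an Ensembl ID for 0 of them. All 7 symbols are in that reference, but 0 of the 7 ID-symbol pairs could be checked, and every gene name here rests on that pairing.

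Poly(A) mRNA was sequenced from 6 samples of primary rat BMSCs in alpha-MEM medium with serum. The Hypoxia group (3 libraries) was kept at 1% O2 for 7 days in a tri-gas incubator. The Control group (3 libraries), also listed at day 7, was labelled as normal culture, with no oxygen percentage. The sources used here give no strain, age or passage. They also do not say whether the 3 samples in each group represent different animals or cultures. The p-values therefore describe sample-to-sample spread, part or all of which may be technical.

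Marrow stromal cells are recognised by a panel of surface proteins and by the lack of blood cell antigens. Thy1 (CD90) is a small membrane-anchored glycoprotein, Cd44 the main receptor for hyaluronan, and Nt5e (CD73) the ecto-enzyme that turns extracellular AMP into adenosine. Itgb1 is the beta-1 chain shared by many integrins, the receptors that hold cells to collagen, fibronectin and laminin. Pdgfrb is the receptor tyrosine kinase for PDGF-BB, a growth signal for mesenchymal cells and pericytes. Cxcl12 (SDF-1) is the chemokine by which marrow stroma retains blood stem cells, acting through the receptor Cxcr4. Ptprc (CD45) is the phosphatase carried by nearly all nucleated blood cells and served as a check for them.

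The series names the transcription factor SP1, which binds GC boxes, so the sequence before the start site is shown for the 3 members that differed between the groups and had a promoter entry, 1 that fell and 2 that rose. The entries come from RefSeq on GRCr8, a later build than the rn6 used for counting, and were matched by symbol for 5 of the 7 genes. Thy1 and Pdgfrb had no entry. Each line runs 5′ to 3′ on the gene's strand over the 250 bases before the start. Capitals mark the GC box (GGGCGG, or CCGCCC on the other strand) and the core letters of the hypoxia response element (ACGTG or GCGTG, or CACGT or CACGC on the other strand).
Cxcl12, GRCr8, chr4:152060531-152060780, plus strand: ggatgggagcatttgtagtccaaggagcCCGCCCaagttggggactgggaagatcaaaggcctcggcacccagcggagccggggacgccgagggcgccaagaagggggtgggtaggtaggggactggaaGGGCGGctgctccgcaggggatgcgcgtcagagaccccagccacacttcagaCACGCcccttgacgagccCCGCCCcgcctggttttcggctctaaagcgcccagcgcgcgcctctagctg
Cd44, GRCr8, chr3:109699425-109699674, minus strand: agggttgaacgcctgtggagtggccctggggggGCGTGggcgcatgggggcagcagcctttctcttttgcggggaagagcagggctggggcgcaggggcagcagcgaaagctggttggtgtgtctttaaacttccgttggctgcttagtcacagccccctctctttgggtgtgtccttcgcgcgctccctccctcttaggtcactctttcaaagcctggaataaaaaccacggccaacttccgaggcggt
Nt5e, GRCr8, chr8:98150675-98150924, plus strand: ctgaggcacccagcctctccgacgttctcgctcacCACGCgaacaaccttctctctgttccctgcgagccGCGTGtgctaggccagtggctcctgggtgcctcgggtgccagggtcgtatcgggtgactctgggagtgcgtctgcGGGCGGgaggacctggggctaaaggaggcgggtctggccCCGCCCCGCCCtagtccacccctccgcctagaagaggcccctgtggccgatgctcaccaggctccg

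The GC box letters occurred 3 times before Cxcl12, 3 times before Nt5e, where a pair shares 1 base, and 0 times before Cd44. Itgb1, not printed, held 4, and Ptprc 0. Of all 33469 RefSeq promoter windows of the same length, 30.5% held at least 1 GC box. GCGTG was found once before Cxcl12, once before Cd44, at 2 places before Nt5e, once before Ptprc and nowhere before Itgb1, against 25.9% of all windows with at least 1. ACGTG was in 0 of the 5 windows and in 16.6% of all. The printed windows are rich in G and C, with 67.6% for Cxcl12, 60.8% for Cd44 and 68.8% for Nt5e, where the median of all windows is 51.2%. A match describes the letters alone. The counts of letters were not tested against the expression values.

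The libraries held 13273781 to 13361629 reads assigned to genes in controls and 14879124 to 18533675 at 1% O2. Values below are CPM, counts per 1000000 reads of the TMM-scaled library. TMM gives each library a factor that centres most genes on no change. Control replicate 2 stood apart from the other controls. Of 5043 well-measured genes (average log2 CPM 5 or more), 280 were lower there by over 0.3 on the log2 scale than the mean of Control replicates 1 and 3, and 21 were higher by as much. Set in the same way against the rest of their group, Control replicates 1 and 3 had 5 and 4 genes below and 52 and 48 above, where the mean they are set against includes Control replicate 2. The 1% O2 libraries had 5 to 8 below and 4 to 6 above. CPM depends on transcript length, so levels are compared between groups and not between genes. In cultures measured in bulk, fewer cells of a type and less RNA per cell cannot be told apart.

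**Figure D1:**
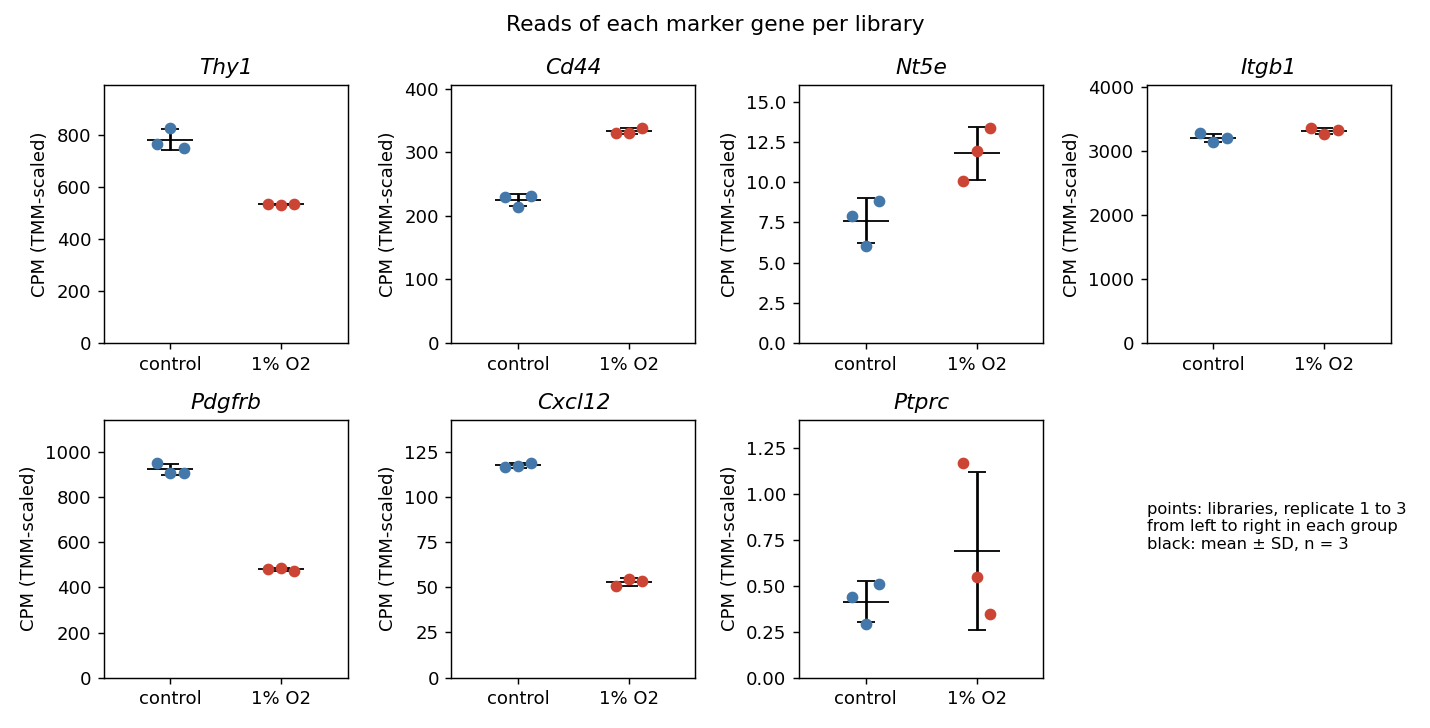
TMM-scaled CPM (vertical axes, each from 0) of the 7 genes in the 3 control and 3 Hypoxia (1% O2) libraries, as points with the mean and SD (n = 3) in black. Thy1, Pdgfrb and Cxcl12 lay lower in every 1% O2 library than in any control, Cd44 and Nt5e lay higher, and the groups overlapped for Itgb1 and Ptprc.

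The marker panel did not move as one. Of the 6 members with enough reads to be tested, 3 fell at 1% O2 (Thy1, Pdgfrb and Cxcl12), 2 rose (Cd44 and Nt5e), and Itgb1 did not pass the threshold, an adjusted p of 0.05 (edgeR quasi-likelihood test, Benjamini-Hochberg over 12702 genes). The comparison called 45.0% of all tested genes, 23.1% as higher and 21.9% as lower. Both the 5 called of 6 and their mixed directions are thus to be read against a wide response in both directions. The split by direction depends on the scaling: 2932 genes were called higher and 2786 lower with TMM, but 2084 and 3987 with library totals alone, where the members were still 2 higher and 3 lower. Without Control replicate 2, 6017 genes were called in place of 5718. Among the 25% most abundant tested genes, which include all tested members except Nt5e, 61.7% were called. Control and 1% O2 libraries did not overlap in CPM for the 5 called members, 2 higher and 3 lower. The same held for 55.5% of all tested genes, 28.2% higher and 27.4% lower. The median log2 fold change was -0.25 over the 6 members and 0.0025 over all tested genes. The median size of change, regardless of sign, was 0.60 for the members and 0.23 for all tested genes on the log2 scale. As the members were chosen with earlier results of these data known, these medians describe the set and test nothing about it.

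**Figure D2:**
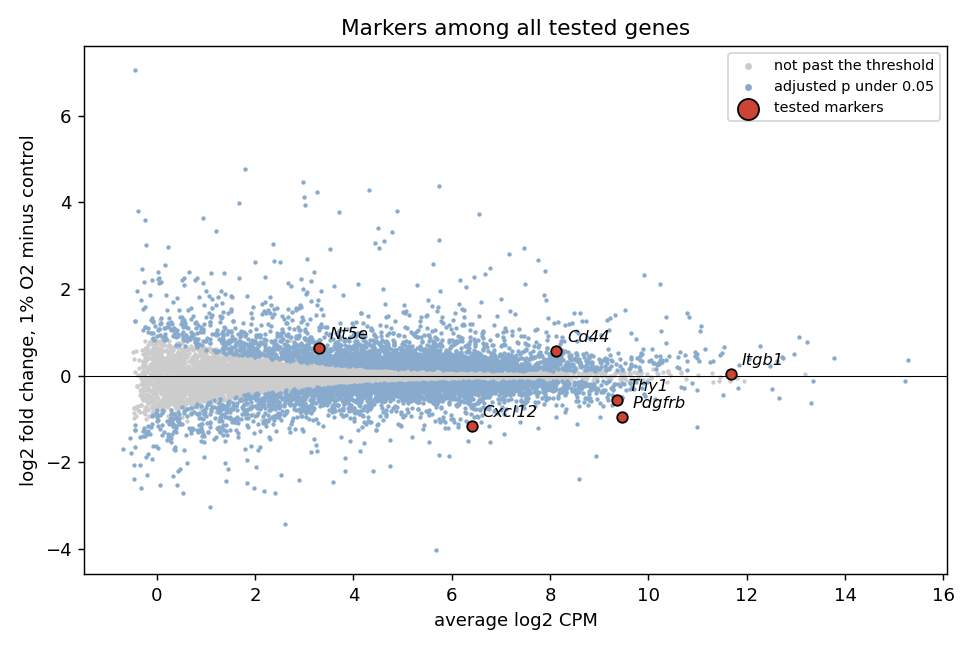
Log2 fold change, 1% O2 minus control, against average log2 CPM for the 12702 tested genes (small points, blue where the adjusted p was under 0.05) with the 6 tested markers in red. Cxcl12 and Pdgfrb lie near the lower edge of the genes of their abundance, Thy1 less far below 0, Cd44 and Nt5e above 0, and Itgb1 close to 0.

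The niche chemokine Cxcl12 had the largest change of the set. Control replicates 1 to 3 held 116, 117 and 119 CPM, and the 1% O2 replicates 50.5, 54.6 and 53.7 CPM. The lowest control was 2.13 times the highest 1% O2 library, so the groups were well apart. The mean went from 117 ± 1.3 to 52.9 ± 2.2 CPM (SD, n = 3 each). The log2 fold change was -1.15 ± 0.05 (SE), 2.22-fold lower, with a 95% interval of -1.26 to -1.04 (adjusted p = 4.85e-10, edgeR). Only 1.28% of the tested genes had a lower log2 fold change. Its counts, 1588 to 1636 reads in controls and 771 to 907 at 1% O2, give a counting error near 2.5% and 3.5%, against a spread of 1.1% and 4.1% (coefficients of variation). Without Control replicate 2 the log2 fold change was -1.15.

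Pdgfrb, the PDGF receptor, fell almost as far. The control libraries held 953, 909 and 909 CPM and the 1% O2 libraries 479.7, 488 and 474 CPM. Every 1% O2 library lay near the same level, and the lowest control was 1.86 times the highest of them. The mean went from 924 ± 26 to 481 ± 7 CPM (SD, n = 3 each), a log2 fold change of -0.94 ± 0.04 (SE), 1.92-fold lower, with a 95% interval of -1.03 to -0.86 (adjusted p = 3.47e-10, edgeR). A lower log2 fold change was found in 2.28% of the tested genes. Control replicate 2 had little weight here, as the log2 fold change without it was -0.95. The 95% intervals of Pdgfrb and Cxcl12 lie side by side without overlap, but the difference between these genes was not tested.

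Thy1, the classical CD90 surface marker, fell less. It stood at 766, 827 and 752 CPM in the control libraries and at 534, 532 and 536 CPM at 1% O2. Control replicate 2 was the highest of all, whereas the 1% O2 libraries were nearly equal. The mean went from 781 ± 40 to 534 ± 1.9 CPM (SD, n = 3 each). The log2 fold change was -0.55 ± 0.04 (SE), 1.46-fold lower, with a 95% interval of -0.64 to -0.46 and an adjusted p of 2.62e-07 by edgeR. Without Control replicate 2 it was -0.51, adjusted p = 4.86e-15 by edgeR. This fit also gave far smaller adjusted p than the main fit for Cd44, Pdgfrb and Cxcl12, and a similar one for Nt5e and Itgb1. The small value is thus not particular to Thy1. With any other library left out, the adjusted p of Thy1 was 1.39e-06 to 1.64e-05 by edgeR. The coefficient of variation was 5.1% in controls, where counting alone gives 0.97%, and 0.36% at 1% O2, where counting gives 1.1%. The spread was thus larger than counting gives in controls and smaller at 1% O2. With n = 3 in each group, this difference was not tested.

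Cd44, the hyaluronan receptor, moved the other way. Its control values were 229, 214 and 231 CPM, and its values at 1% O2 were 330.4, 331 and 339 CPM. All 1% O2 libraries were above all controls, by at least 1.43-fold. The mean went from 225 ± 9 to 333 ± 4.5 CPM (SD, n = 3 each). The log2 fold change was 0.57 ± 0.04 (SE), 1.48-fold higher, with a 95% interval of 0.47 to 0.66 (adjusted p = 1.71e-07, edgeR). Of the tested genes, 91.7% had a lower log2 fold change. Control replicate 2 was the lowest library for this gene, and the log2 fold change without it was 0.54.

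Nt5e, the CD73 ecto-enzyme, also rose, from a far smaller number of reads. The controls held 108, 83 and 121 reads of it and the 1% O2 libraries 181, 174 and 192. These correspond to 7.92, 6.05 and 8.80 CPM in controls and 10.1, 11.96 and 13.4 CPM at 1% O2. The groups did not overlap, but the lowest 1% O2 library was only 1.15 times the highest control. The mean went from 7.59 ± 1.40 to 11.8 ± 1.7 CPM (SD, n = 3 each), with a log2 fold change of 0.63 ± 0.14 (SE), 1.55-fold higher (adjusted p = 0.00274, edgeR). Its 95% interval, 0.32 to 0.94, spans that of Cd44, so these data do not separate the sizes of the 2 rises. The spread within groups was 18.5% and 14.0%, against 9.8% and 7.4% from counting alone. Control replicate 2 was again the lowest library, and without it the log2 fold change was 0.49, with an adjusted p of 0.00233 by edgeR.

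Itgb1, the common beta-1 integrin chain, was nearly level. It held 3268, 3135 and 3200.1 CPM in the control libraries and 3355, 3262 and 3325 CPM at 1% O2. The groups overlapped, since Control replicate 1 lay above Hypoxia replicate 2. The mean was 3201 ± 66 CPM in controls and 3314 ± 47 CPM at 1% O2 (SD, n = 3 each), a log2 fold change of 0.05 ± 0.04 (SE) and an adjusted p of 0.304 (edgeR). The 95% interval, -0.03 to 0.13, holds under this scaling. Without Control replicate 2 the log2 fold change was 0.036. Its sign was not stable. With library totals in place of TMM, which lowers log2 fold changes by a median of 0.09, it was -0.039. By that measure Itgb1 took 0.3298% ± 0.0057 of all reads in controls and 0.3210% ± 0.0040 at 1% O2 (SD, n = 3 each).

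**Figure D3:**
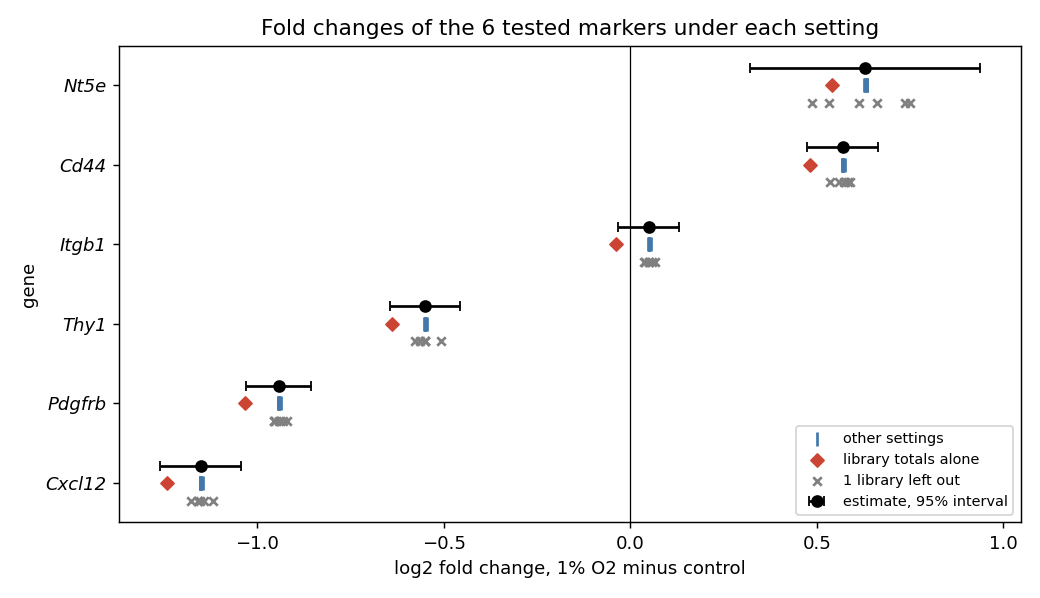
Log2 fold changes, 1% O2 minus control (horizontal axis), of the 6 tested genes: estimate with its 95% interval (black), other settings (blue ticks), library totals alone (red diamonds) and with 1 library left out (grey crosses). The 5 called genes stay on 1 side of 0 under every setting that tested them, and Itgb1 crosses it with library totals, at -0.039.

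Because scaling moved all values, each member was also set against Itgb1 in the same library, a ratio of reads that needs no scaling factor and was chosen after the values were seen. The ratio describes the change of each member relative to Itgb1 and does not show that Itgb1 was constant. Cxcl12 had 35.6, 37.3 and 37.2 reads per 1000 Itgb1 reads in controls and 15.1, 16.8 and 16.1 at 1% O2, 2.30-fold lower on the mean. Pdgfrb went from 292, 289.8 and 284 to 143, 149.6 and 143, 1.99-fold lower. Thy1 went from 234, 264 and 235 to 159, 163 and 161, 1.52-fold lower. In these 3 genes no 1% O2 library reached the level of any control.

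Cd44 had 70.1, 68.2 and 72.1 reads per 1000 Itgb1 reads in controls and 98.5, 101 and 102 at 1% O2, 1.43-fold higher. Nt5e went from 2.42, 1.93 and 2.75 to 3.004, 3.67 and 4.02, 1.51-fold higher. The groups did not overlap for these 5 genes, which are those already apart in CPM. Ptprc overlapped, with a mean of 0.129 reads per 1000 Itgb1 reads in controls and 0.207 at 1% O2. Over the 6 ratios, a two-sided exact permutation test returned p = 0.1 for each of the 5, the smallest that 3 libraries against 3 allow, and p = 0.4 for Ptprc. After Benjamini-Hochberg adjustment over the 6 these were 0.12 and 0.4. Itgb1, nearly level in CPM, was chosen as the shared denominator after the values were seen. The ratios thus largely repeat the CPM comparison for the 5 genes. The permutation test is therefore not a fresh test of them, and no conclusion is drawn from it. Without Control replicate 2 the mean log2 change of the ratio was 0.46 in place of 0.60 for Nt5e, 0.50 in place of 0.52 for Cd44, -0.54 in place of -0.60 for Thy1, -0.99 in both cases for Pdgfrb and -1.19 in place of -1.20 for Cxcl12.

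**Figure D4:**
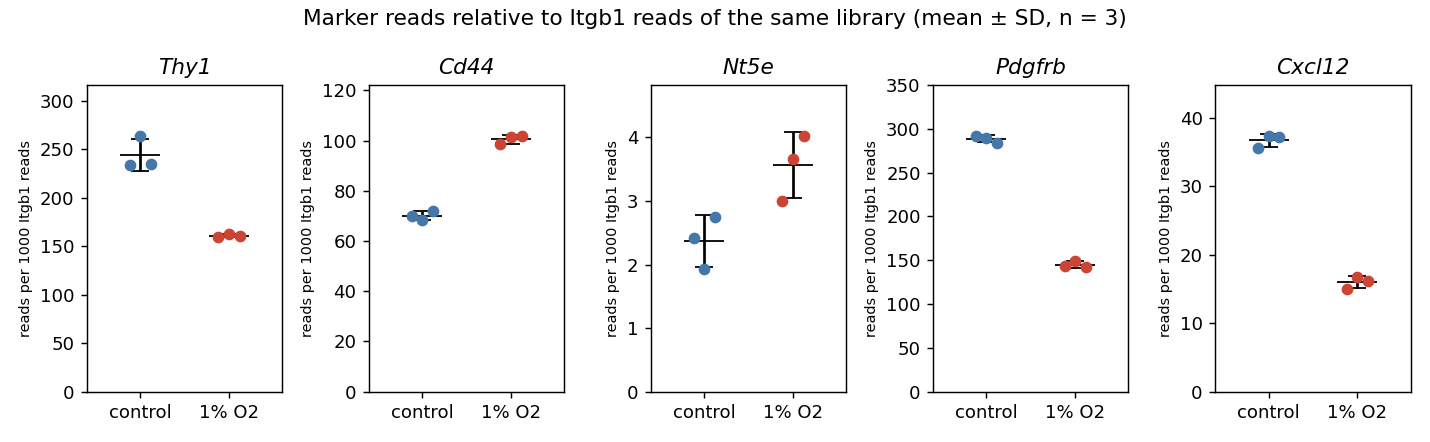
Reads of 5 markers per 1000 Itgb1 reads of the same library (vertical axes, each from 0) in control and Hypoxia (1% O2) libraries, with mean and SD (n = 3) in black. Thy1, Pdgfrb and Cxcl12 are lower and Cd44 and Nt5e higher at 1% O2, with no overlap.

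Reads of the blood cell gene Ptprc were scarce in every library. The controls held 6, 4 and 7 reads of it and the 1% O2 libraries 21, 8 and 5. It was removed by the filter on low counts and was not tested in the main comparison. Its level was 0.413 ± 0.111 CPM in controls and 0.689 ± 0.428 CPM at 1% O2 (SD, n = 3 each), and the groups overlapped. Hypoxia replicate 1 was the highest, with 1.13 CPM over the unscaled library total (95% exact binomial interval 0.701 to 1.73, counting error only), and Control replicate 2 the lowest with 0.301 CPM (0.0821 to 0.772). Without Hypoxia replicate 1 the mean at 1% O2 exceeded that of controls by 0.0368 CPM in place of 0.276, and without Control replicate 2 by 0.213 CPM. With no filter the log2 fold change was 0.79 ± 0.47 (SE), with an adjusted p of 0.232 by edgeR over 19600 genes. Hypoxia replicate 1, where Ptprc was highest, lay above the mean of its group by 0.028% for Thy1 and 1.2% for Itgb1. It lay below that mean by 0.18% for Pdgfrb, 0.86% for Cd44, 4.6% for Cxcl12 and 14.6% for Nt5e. These means include Hypoxia replicate 1 itself, so its distance from the mean of the other 1% O2 libraries was larger. Whether cells carrying Ptprc contributed to the values of the other members was not tested.

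The members also differed in how closely replicates agreed. In Control replicate 2, Thy1 was the highest of the controls, and Cd44, Nt5e, Itgb1 and Ptprc were the lowest. Pdgfrb and Cxcl12 did not follow this library, with 908.6 against 908.7 CPM for Pdgfrb in Control replicates 2 and 3, and 117 CPM for Cxcl12 between the other controls. All 5 calls held without it.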

How the data were processed

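The authors deposited raw read counts per Ensembl gene ID for 6 libraries, and 0 columns belonged to other samples. Per the submitters' processing notes, HISAT2, featureCounts and DESeq2 were named with build rn6. The sources used here give no versions, annotation release or strand setting, so overlapping or antisense genes may share reads. Per the labels' protocols, a stranded mRNA kit was used, and the RNA extraction text speaks of muscle although all other labels give BMSCs.

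Counts were fitted with edgeR 4.0.16 in R 4.3.3: filterByExpr (minimum count 10, minimum total 15), TMM factors, 1 group term, 4 residual degrees of freedom, quasi-likelihood F-test, two-sided. The SE is the log2 fold change divided by the square root of F, and the 95% interval uses it. CPM were computed here. The script was tested on simulated data. The named genes were all 7 members. The members and lists were chosen with earlier results of these data known. Lists of related genes and of markers of other cell types, and the search for genes of like pattern, need symbols for all IDs and were not run. Other settings tried were DESeq2 1.42.0, voom in limma 3.58.1, scaling by median-of-ratios factors or by totals only, 2 filters, robust dispersion, a replicate block, and each library left out in turn.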

Additional observations from a re-analysis of the deposited data

How the results depend on the processing

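The 5 member calls held under 13 of 14 alternatives. The exception was the filter of at least 10 CPM in 3 libraries, which left Nt5e out, so 4 members were called and 1 was higher. For Itgb1, library totals alone gave a log2 fold change of -0.039 (adjusted p = 0.414 by edgeR), against 0.05. Over all alternatives that tested them, log2 fold changes lay between -1.24 and -1.12 for Cxcl12, -1.03 and -0.92 for Pdgfrb, -0.64 and -0.51 for Thy1, 0.48 and 0.59 for Cd44, 0.49 and 0.75 for Nt5e. The largest adjusted p was 0.0194 by edgeR (Nt5e without Hypoxia replicate 3). The count of all changed genes was 4408 to 6071, with 2084 to 3123 higher and 2100 to 3987 lower. The replicate block gave 5295 changed genes, 5 members among them. The labels state no pairing, so pairing was not assumed. After each gene's group mean was removed from log2 CPM, same-numbered control and 1% O2 libraries correlated at -0.04, -0.05 and 0.01. Those with different numbers correlated at -0.01 to 0.05. Depth limits Ptprc, at 4 to 21 reads a library.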
